A study of Mus musculus with 6 samples.

Results

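Ptprc, Lck, Cd8a, Dntt, Cd247 and Nfatc2 are genes of T cells and of their thymic precursors, the thymocytes. They were followed here as splicing readouts in cultured medullary thymic epithelial cells (mTECs). Every row carrying 1 of these 6 symbols was taken, which gave 14 splicing events in each of the 6 libraries, out of 4777 to 4949 events of 2765 to 2857 genes per library. Events have no name beyond the gene symbol, so they carry numbers that follow row order: Ptprc, Lck, Cd8a and Dntt had 1 each, Cd247 had 3 and Nfatc2 had 7. The measured value is the inclusion frequency of an event, a fraction from 0 (no inclusion) to 1 (full inclusion). The type of event, such as a skipped exon, is not given.

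mTECs are stromal cells that display proteins of other tissues to developing T cells, in part under control of the transcriptional regulator Aire. Primary mTECs of mice, sorted as EpCAM+ and I-A/E+ without CD45 or Ly51, were laid over human dermal fibroblasts embedded in fibrin and infected with lentiviruses that carried GFP and a short hairpin RNA. The Ctr group received a hairpin against bacterial LacZ (2 libraries), and the other groups received hairpins against Raver2 (sh1 and sh2, 1 library each) or Setd2 (sh1 and sh2, 1 library each). All groups shared the culture, the vector and collection at day 5 after infection, when DAPI- I-A/E+ GFP+ cells were sorted. CD45 is named in the first sort and not in the last. No source used here gives strain or age, and nothing says whether libraries came from separate animals, so the spread between libraries may be technical and, in the knockdown groups, includes the difference between hairpins. Raver2 encodes a protein that binds RNA together with PTB, a repressor of splicing, and Setd2 trimethylates lysine on histone H3 along transcribed genes.

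In the thymus, precursors rearrange their antigen receptor genes, with Dntt adding bases at the joints. They then pass through a stage at which CD4 and CD8 are both present. The receptor signals through the Cd247 zeta chain, which the kinase Lck phosphorylates after the phosphatase CD45, the product of Ptprc, has released Lck from inhibition. Calcium then brings the transcription factor Nfatc2 into the nucleus. Thymocytes express these genes strongly, whereas epithelial cells can make low amounts of many tissue-restricted transcripts, so RNA of either origin could bear on such a readout. Thymocytes carry CD45 and, in mice, lack I-A/E, so the CD45 gate of the first sort and the I-A/E gate of both sorts select against them. An inclusion frequency carries no expression level, so fewer cells of a type and less RNA per cell cannot be told apart here, nor can thymocyte RNA and transcripts made by mTECs.

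No event was listed for either target, Raver2 or Setd2, in any library, so the extent of knockdown could not be checked. Of the genes that define the labelled cells, Aire had 9 events in each library, while Epcam, Krt5, Krt14 and H2-Aa had none. The T cell genes Cd3e, Cd4, Cd8b1, Zap70 and Rag1 had none either. A gene without a listed event can still be expressed. Across the series 4658 events of 2685 genes could be matched in all 6 libraries, and each test below was fitted over all of them. The depth behind a fraction is unknown, and a fraction below 0.01 or above 0.99 can rest on few reads.

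Ptprc encodes CD45, the receptor phosphatase of blood cells, and is a textbook case of regulated splicing. Its variable exons are kept in B cells and are skipped to differing extents among T cells. The gene lies on chr1:138062861-138175708 (minus strand, mm10, GENCODE M21), and the annotation holds 4 coding exons that some transcripts skip. Exons 4, 5 and 6, known as A, B and C, are shown because they are the classical variable segments of CD45. Capitals mark TCTT, a pyrimidine-rich word of the kind that PTB binds, searched on the transcript strand alone and counted without overlaps.
Ptprc exon 4, chr1:138122456-138122584, minus strand: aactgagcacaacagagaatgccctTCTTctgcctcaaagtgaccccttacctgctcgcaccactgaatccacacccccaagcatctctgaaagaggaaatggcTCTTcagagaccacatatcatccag
Ptprc exon 5, chr1:138120020-138120166, minus strand: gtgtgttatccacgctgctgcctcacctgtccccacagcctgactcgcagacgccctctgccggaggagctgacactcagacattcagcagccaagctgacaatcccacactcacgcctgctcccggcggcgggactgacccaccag
Ptprc exon 6, chr1:138117754-138117894, minus strand: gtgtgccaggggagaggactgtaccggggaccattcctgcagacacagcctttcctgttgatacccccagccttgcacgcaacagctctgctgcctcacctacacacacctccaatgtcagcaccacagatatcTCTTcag
The word occurs 2 times in exon 4, is not found in exon 5 and occurs once in exon 6. Among internal exons of coding transcripts of equal length it occurs in 41.2%, 43.6% and 41.9%. Their lengths of 129, 147 and 141 bases are multiples of 3, so skipping keeps the reading frame. Which exon the listed event concerns is not known here.

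Inclusion of the Ptprc event was 0.947 and 0.908 in the Ctr libraries, 0.909 and 0.910 in the Raver2 libraries and 0.916 and 0.923 in the Setd2 libraries. The first Ctr library was the highest, the second was the lowest, and both knockdown groups lay between them. Mean inclusion was 0.927 ± 0.0282 in Ctr (SD, n = 2), 0.919 ± 0.00451 under Setd2 knockdown and 0.910 ± 0.00116 under Raver2 knockdown. The difference from Ctr was -0.0179 for Raver2 knockdown (95% interval -0.0620 to 0.0262; limma, adjusted p = 0.747) and -0.00800 for Setd2 knockdown (95% interval -0.0521 to 0.0361; adjusted p = 0.943). Between the knockdowns it was -0.00987 (adjusted p = 1).

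Lck is the Src-family kinase that starts receptor signalling and is transcribed from a distal and a proximal promoter, the latter used mainly in thymocytes. The gene lies on chr4:129548344-129573641 (minus strand), and the annotation, with 8 transcripts, holds no skippable internal exon for it. Its event had inclusion of 0.884 and 0.896 in Ctr, 0.891 and 0.904 with Raver2 hairpins and 0.876 and 0.850 with Setd2 hairpins. Both Setd2 libraries lay below the other 4. Means were 0.898 ± 0.00932 (SD, n = 2) under Raver2 knockdown, 0.890 ± 0.00847 in Ctr and 0.863 ± 0.0181 under Setd2 knockdown. No neighbouring pair in this order passed the test: Raver2 knockdown against Ctr gave 0.00799 (95% interval -0.0282 to 0.0442; limma, adjusted p = 0.909) and Setd2 knockdown against Ctr gave -0.0266 (95% interval -0.0628 to 0.00961; adjusted p = 0.578). The gap between the knockdowns was 0.0346 (95% interval -0.00162 to 0.0708; limma, adjusted p = 0.848).

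Cd8a encodes the alpha chain of the CD8 co-receptor and spans chr6:71373427-71379173 (plus strand). The annotation holds a single skippable exon of this gene, which is coding. It is shown because a shorter form of the chain, with a truncated cytoplasmic tail, is known to arise by exon skipping.
Cd8a exon 4, chr6:71375888-71375918, plus strand: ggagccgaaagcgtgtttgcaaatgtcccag
At 31 bases it is not a multiple of 3, and it holds no TCTT, which 8.92% of internal exons of that length hold. Whether the listed event is this exon is not known here.

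The Cd8a event was near balance in every library, at 0.535 and 0.606 in Ctr, 0.522 and 0.556 with Raver2 hairpins and 0.546 and 0.537 with Setd2 hairpins. The second Ctr library was the highest and the 3 groups overlapped. Means were 0.571 ± 0.0508 (SD, n = 2) in Ctr, 0.541 ± 0.00667 under Setd2 knockdown and 0.539 ± 0.0241 under Raver2 knockdown. Differences from Ctr were -0.0318 for Raver2 (95% interval -0.165 to 0.101; limma, adjusted p = 0.887) and -0.0291 for Setd2 (95% interval -0.162 to 0.104; adjusted p = 0.898). Both intervals spanned 0.

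Dntt encodes terminal deoxynucleotidyl transferase, the enzyme of early thymocytes and B cell precursors that adds bases without a template during receptor gene assembly. It lies on chr19:41029275-41059525 (plus strand). Mice make short and long forms of the enzyme, and the 1 annotated skippable exon, with 60 coding bases, is shown for that reason.
Dntt exon 11, chr19:41058567-41058626, plus strand: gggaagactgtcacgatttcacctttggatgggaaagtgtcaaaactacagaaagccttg
The exon keeps the reading frame when skipped and holds no TCTT, which 23.8% of internal exons of its length hold. The listed event is not tied to it by the files.

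Inclusion of the Dntt event was 0.0817 and 0.0768 in Ctr, 0.148 and 0.134 with Raver2 hairpins and 0.134 and 0.130 with Setd2 hairpins. All 4 knockdown libraries lay above both Ctr libraries, a pattern that 10.9% of all events showed. Mean inclusion was 0.141 ± 0.01005 (SD, n = 2) under Raver2 knockdown, 0.132 ± 0.00235 under Setd2 knockdown and 0.0792 ± 0.00346 in Ctr. The difference from Ctr was 0.0622 for Raver2 knockdown (95% interval 0.0407 to 0.0836; limma, unadjusted p = 0.00157) and 0.0527 for Setd2 knockdown (95% interval 0.0312 to 0.0741; unadjusted p = 0.00283). Neither passed over all events (limma, adjusted p = 0.0615 and 0.0888), and neither passed under any of 13 other settings (lowest adjusted p 0.0551 and 0.0837, highest 0.260 and 0.314). Both differences use the same Ctr libraries. The knockdowns differed from each other by 0.00951 (95% interval -0.0119 to 0.0310; adjusted p = 0.964).

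**Figure D1:**
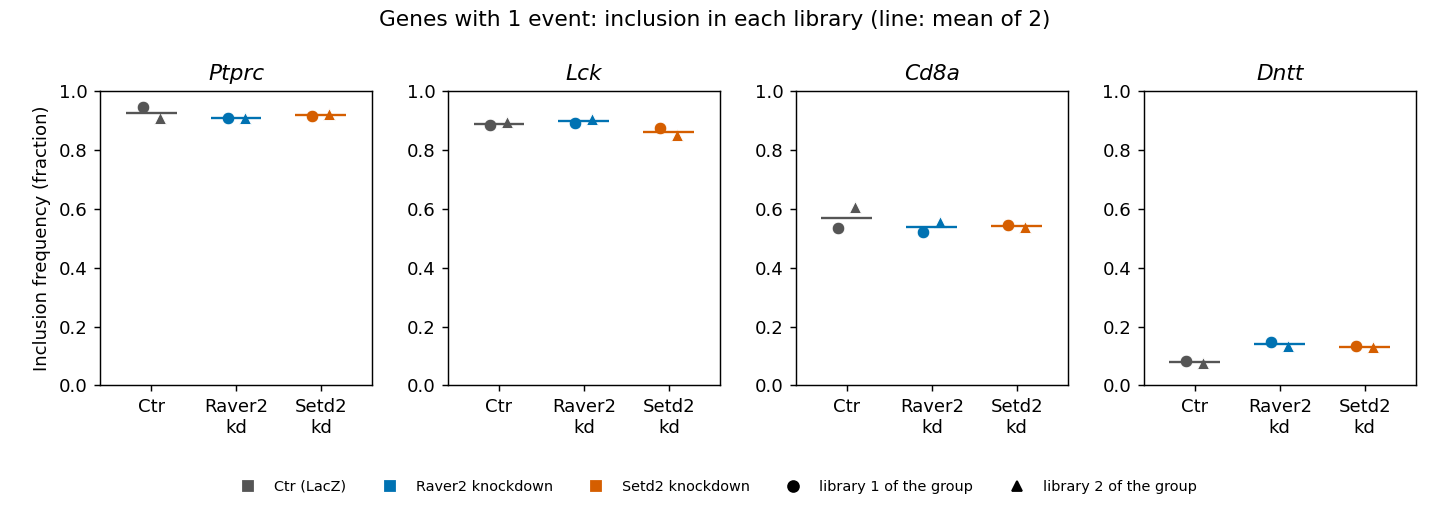
Inclusion frequency (fraction, 0 to 1) of the events of Ptprc, Lck, Cd8a and Dntt in each library, with colours for Ctr, Raver2 knockdown and Setd2 knockdown, symbols for library 1 and 2 of a group and lines for group means (n = 2). Dntt shows all knockdown libraries, at 0.130 to 0.148, above the Ctr libraries at 0.0768 and 0.0817, while the groups of Cd8a overlap.

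Cd247 encodes the zeta chain, which carries the tyrosine motifs that Lck phosphorylates, and lies on chr1:165788681-165877277 (plus strand). Alternative 3′ exons of this gene are known to give zeta and eta forms with different tails. The annotation lists a skippable exon near the 3′ end in a shorter and a longer version, and the shorter, fully coding one is shown because annotated transcripts either keep or skip it.
Cd247 exon 8, chr1:165866655-165866748, plus strand: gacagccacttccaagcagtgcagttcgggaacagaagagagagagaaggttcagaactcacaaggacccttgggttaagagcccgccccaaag
These 94 bases are not a multiple of 3 and hold no TCTT, which 34.4% of internal exons of that length hold. The longer version, of 244 bases, holds 1 TCTT, as do 65.65% of internal exons of its length. No file ties the 3 listed events to this exon.

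Events 2 and 3 of Cd247 rose under Raver2 knockdown. Event 2 was below 0.01 in both Ctr and both Setd2 libraries and was 0.0506 and 0.0587 in the Raver2 libraries. Event 3 was likewise below 0.01 in these 4 libraries and was 0.0552 and 0.0610 in the Raver2 libraries. Both Raver2 hairpins thus stood apart from the rest of the series, at a low level of inclusion. The events differed by at most 0.00458 in any library, so they may be 1 measurement.

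The rise against Ctr was 0.0547 ± 0.00310 (SE, n = 2 per group; limma, adjusted p = 0.0115) for event 2 and 0.0581 ± 0.00233 (adjusted p = 0.00520) for event 3. Against Setd2 knockdown the differences were of the same size, with adjusted p = 0.0215 and 0.00940. Against Ctr, event 3 passed under all 12 other settings and event 2 under 9 of 12. Against Setd2 knockdown, event 3 passed under 10 and event 2 under 6 of 13. In that comparison event 2 missed the threshold without either Ctr library (limma, adjusted p = 0.0841 and 0.0829) or either Setd2 library (0.0912 and 0.0755), and event 3 missed it without Setd2 library 1 (0.0516). Because 4 of 6 libraries sat at the end of the scale, the spread behind these tests came almost wholly from the Raver2 libraries.

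Event 1 of Cd247 was above 0.99 in both Ctr libraries, 0.866 and 0.903 in the Raver2 libraries and 0.855 and above 0.99 in the Setd2 libraries. Inclusion was therefore incomplete in 3 of 4 knockdown libraries, including 1 Setd2 library in which events 2 and 3 were below 0.01. The differences from Ctr were -0.115 for Raver2 knockdown (95% interval -0.272 to 0.0419; limma, adjusted p = 0.590) and -0.0724 for Setd2 knockdown (95% interval -0.229 to 0.0847; adjusted p = 0.699). The knockdowns differed by -0.0428 (adjusted p = 1).

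Nfatc2 encodes a calcium-regulated transcription factor that drives cytokine genes after receptor signalling. It is also expressed outside T cells. It lies on chr2:168476410-168601657 (minus strand) with 9 annotated transcripts, which differ in first exons and in the 3′ end, and 1 annotated skippable exon of 86 bases, partly coding. That exon holds 1 TCTT, which 31.9% of internal exons of its length hold.

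The 7 events of Nfatc2 held fewer than 7 separate measurements. Events 1 and 5 summed to 1 within 0.01 in all 6 libraries, events 5 and 7 held nearly the same values in every library, and events 4 and 6 differed by at most 0.00564. Events 2 and 4 summed to 1 within 0.01 in 4 libraries.

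Event 2 of Nfatc2 rose under Raver2 knockdown, the largest difference among the 14 events in that comparison. Inclusion was 0.0232 and 0.129 in Ctr, 0.944 and above 0.99 with Raver2 hairpins, and 0.0301 and 0.0362 with Setd2 hairpins. Both Raver2 libraries were near full inclusion and the other 4 were at low inclusion. The rise against Ctr was 0.896 ± 0.0609 (SE, n = 2 per group; limma, adjusted p = 0.0169), and the difference from Setd2 knockdown was 0.939 ± 0.0609 (adjusted p = 0.0315). It passed under 7 of 12 other settings against Ctr and 5 of 13 against Setd2 knockdown. Against Ctr it missed when the fit held only the 4 libraries compared (limma, adjusted p = 0.0669) and on a logit scale (0.0946). It missed the threshold without either Setd2 library, both against Ctr (limma, adjusted p = 0.0710 and 0.0710) and against Setd2 knockdown (adjusted p = 0.106 and 0.0849). It also missed without Raver2 library 2 (adjusted p = 0.0501 and 0.0537) and, against Setd2 knockdown, without Ctr library 1 (adjusted p = 0.0516). Setd2 knockdown against Ctr gave -0.0428 (95% interval -0.217 to 0.131; adjusted p = 0.866).

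Events 4 and 6 of Nfatc2 divided the Ctr libraries. Event 4 was below 0.01 in Ctr library 1 and 0.865 in Ctr library 2, below 0.01 in both Raver2 libraries, and 0.970 and 0.964 in the Setd2 libraries. Ctr library 1 thus resembled the Raver2 libraries and Ctr library 2 the Setd2 libraries. With both Ctr libraries, neither difference from Ctr passed (limma, -0.432 for Raver2, adjusted p = 0.712; 0.534 for Setd2, adjusted p = 0.699). The values against Ctr followed the library left out. Without Ctr library 1 the difference was -0.865 for Raver2 (adjusted p = 0.00917) and 0.102 for Setd2 (adjusted p = 0.432). Without Ctr library 2 the means of Raver2 and Ctr were both below 0.01, and the difference was 0.967 for Setd2 (adjusted p = 0.0122). With 1 Ctr library left, the spread came from the other groups alone, and these p-values do not show a difference from Ctr. The knockdowns differed by -0.967 (95% interval -1.88 to -0.0505; adjusted p = 0.793), which passed without Ctr library 1 or 2 (adjusted p = 0.0351 in both). The test between the knockdowns used a spread shared by all groups, which came mostly from the Ctr libraries. Their SD was 0.612, beside 4.26e-06 for Raver2 and 0.00410 for Setd2. Event 6 gave nearly the same values.

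In Nfatc2 events 1 and 5, which sum to 1 and so are 1 observation, no knockdown library fell within the Ctr range. All 4 knockdown libraries lay above both Ctr libraries for event 1 and below both for event 5. Of all events, 10.9% showed the first pattern and 11.6% the other. Event 1 was below 0.01 and 0.0316 in Ctr, 0.0586 and 0.177 with Raver2 hairpins and 0.0658 and 0.0377 with Setd2 hairpins. The differences from Ctr were 0.102 for Raver2 (95% interval -0.0298 to 0.233; limma, adjusted p = 0.567) and 0.0359 for Setd2 (95% interval -0.0956 to 0.168; adjusted p = 0.838). Event 3 was 0.763 and 0.711 in Ctr, 0.548 and 0.776 with Raver2 hairpins and 0.531 and 0.535 with Setd2 hairpins. Both Setd2 libraries and 1 Raver2 library lay below Ctr, and neither difference passed (limma, -0.0745 for Raver2, adjusted p = 0.831; -0.204 for Setd2, adjusted p = 0.537).

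**Figure D2:**
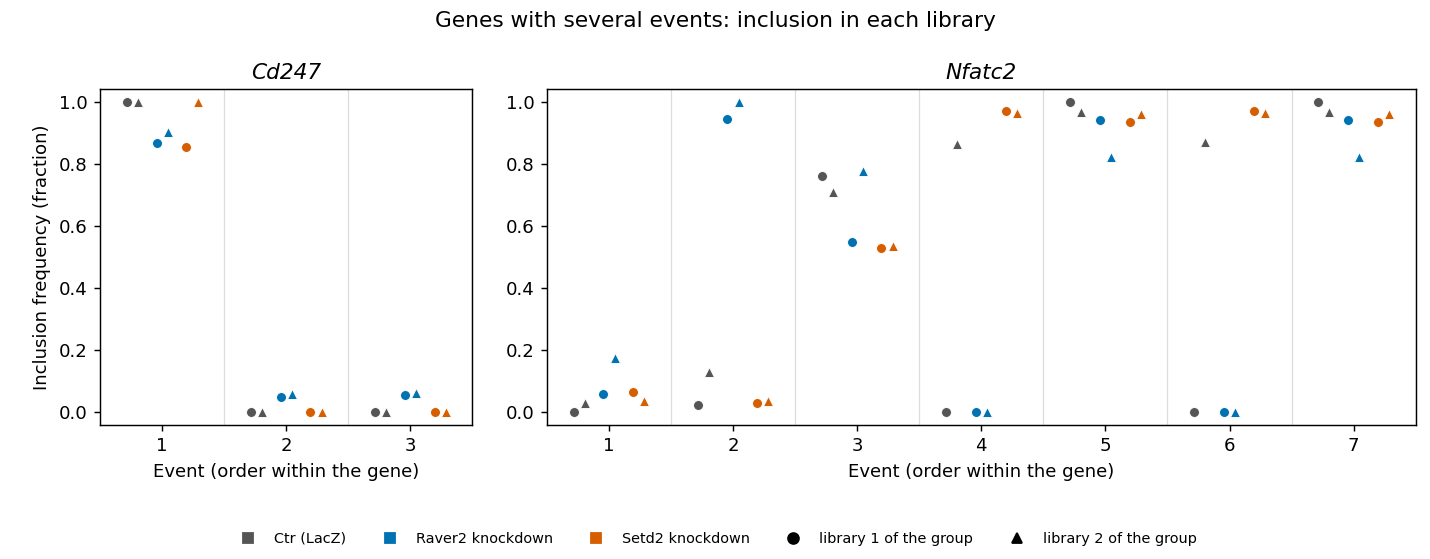
Inclusion frequency (fraction, 0 to 1) of the 3 events of Cd247 and the 7 events of Nfatc2 in each library, with events in order within the gene on the x axis, colours for groups and symbols for library 1 and 2 of a group. Event 2 of Nfatc2 separates the Raver2 libraries, at 0.944 and above 0.99, from the other 4, whereas event 4 separates the Ctr libraries from each other.

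Counted together, 3 of the 14 events passed for Raver2 knockdown against Ctr, all of them higher, where 2.43% of all 4658 events passed (1.01% higher and 1.42% lower). For Setd2 knockdown against Ctr 0 of 14 passed, with 1 at an unadjusted p under 0.05 (limma), where 2.23% of all events passed (0.88% higher and 1.35% lower). Between the knockdowns 3 of 14 passed, all higher under Raver2 knockdown, where 0.73% of all events passed (0.408% higher and 0.322% lower). The 3 calls were the same events in both comparisons, Cd247 events 2 and 3 and Nfatc2 event 2, and both comparisons use the same Raver2 libraries. The median absolute difference over the 14 events was 0.0881 for Raver2 and 0.0359 for Setd2 knockdown against Ctr, beside 0.0423 and 0.0412 over all events. With near-identical events counted separately, these counts overstate the number of measurements. Among the 5 of 14 events with no library below 0.01 or above 0.99, fitted with the 2000 such events alone, 0 passed in any comparison (limma; 1, 2 and 0 at an unadjusted p under 0.05 for Raver2 against Ctr, Setd2 against Ctr and between the knockdowns).

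Groups that did not overlap were common in the whole series, at 41.2% of events for Raver2 knockdown against Ctr, 39.4% for Setd2 knockdown against Ctr and 30.7% between the knockdowns. Against Ctr, 5 of the 14 events lay higher and 3 lower in both Raver2 libraries, where 19.3% and 21.9% of all events did. Under Setd2 knockdown 4 lay higher and 4 lower, where 19.5% and 19.8% did. Between the knockdowns 6 lay higher in both Raver2 libraries and 3 lower, where 14.2% and 16.6% did.

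**Figure D3:**
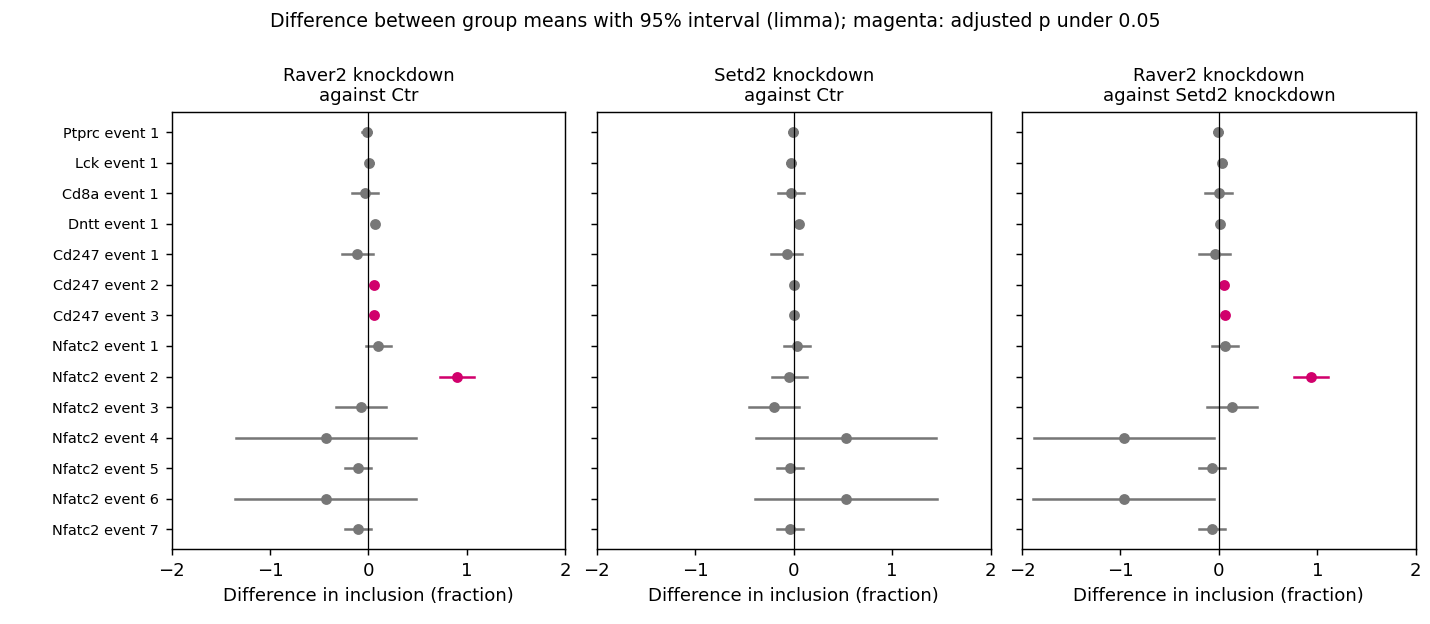
Difference in inclusion (fraction) between group means for the 14 events in the 3 comparisons, with 95% intervals from limma and magenta for an adjusted p under 0.05. Cd247 events 2 and 3 and Nfatc2 event 2 are marked in both comparisons of Raver2 knockdown, and the intervals of Nfatc2 events 4 and 6 are the widest.

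Events most like each variable event were sought among other genes, by the smallest largest difference in any of the 6 libraries, for the 8 events whose inclusion spanned more than 0.1. Among the events closest to Nfatc2 event 2 were those of Rhpn1 (largest difference 0.122) and Repin1 event 3 (0.126). Cd247 event 1 was closest to Ap5s1 event 3 (0.0459), Fut10 (0.0504) and Mtm1 (0.0524). Nfatc2 event 1 was closest to Chpf (0.0426), Armcx2 event 3 (0.0435) and Aire event 1 (0.0544). Nfatc2 event 3 was closest to Josd2 event 3 (0.0959) and a pair of Sltm events (0.102), and events 5 and 7 to Fndc7 (0.0377), Fam134c (0.0534) and Med22 (0.0563). For events 4 and 6 the closest, a pair of Bnipl events, still differed by up to 0.318, followed by Gprc5b (0.422) for event 4 and Tmem116 (0.426) for event 6.

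The events of the other T cell genes varied little between libraries. Of 77 further genes of receptor signalling and thymocyte development, 22 had events in every library, 36 in all. Their inclusion spanned a median of 0.0542 from the lowest to the highest library, beside 0.138 over all 4658 events. A span above 0.1 was seen in 9 of these 36 events (25.0%) and in 60.1% of all events. None of the 36 went from below 0.01 in one library to above 0.99 in another, which 10.8% of all events did. Where all libraries lay between 0.01 and 0.99, the median span was 0.0584 in 28 events of the list and 0.125 in 2000 events of the series. With any 1 library left out, the median of the list lay between 0.0445 and 0.0537. These lists were chosen with earlier results known, so the values are a description.

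Examples, chosen after their values were seen, show the T cell list at steady intermediate levels. Arpp21 event 1, of a gene highly expressed in immature thymocytes, lay between 0.760 and 0.804. Cd27 event 2, of a costimulatory receptor, lay between 0.681 and 0.733. Ikzf1, the Ikaros lymphoid factor, lay between 0.758 and 0.836. The single event of Ptprc spanned 0.0399, that of Lck 0.0540, that of Dntt 0.0717 and that of Cd8a 0.0848. Spans as small or smaller were found in 8.15%, 15.0%, 23.1% and 30.9% of the 2000 events without a library at the ends of the scale. The remaining such event of the 6 genes, Nfatc2 event 3, spanned 0.245, and 79.3% of the 2000 spanned as little or less. Over all 14 events of the 6 genes the median span was 0.161 and 57.1% spanned more than 0.1, beside 0.138 and 60.1% for the series.

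Over all their events, the other gene lists had medians closer to that of the series, a difference that was not tested. The 19 events of the 5 listed thymic epithelial genes (Aire, Cd40, Cd74, Ctss and Trp63, of 29) had a median span of 0.127, and 4 went from end to end of the scale. The 22 events of 10 listed B cell, dendritic and myeloid genes (of 33) had a median span of 0.119, and 5 went from end to end. The 5 events of the 4 listed pan-leukocyte genes (of 20), Ptprc among them, had a median span of 0.111, and the 7 events of the 2 listed fibroblast genes (of 14) had 0.120. Without libraries at the ends of the scale, the medians were 0.0429 for thymic epithelium (1 event, below the T cell list), 0.0949 for B cell, dendritic and myeloid genes (5 events), 0.111 for pan-leukocyte genes (5 events) and 0.117 for fibroblast genes (4 events). The wider median of the epithelial list thus rests on events with a library at 1 of those ends. Of the 18 epithelial events with a library below 0.01 or above 0.99, and of the 8 such events in the T cell list, the depth is unknown, and its part in the spread was not tested.

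**Figure D4:**
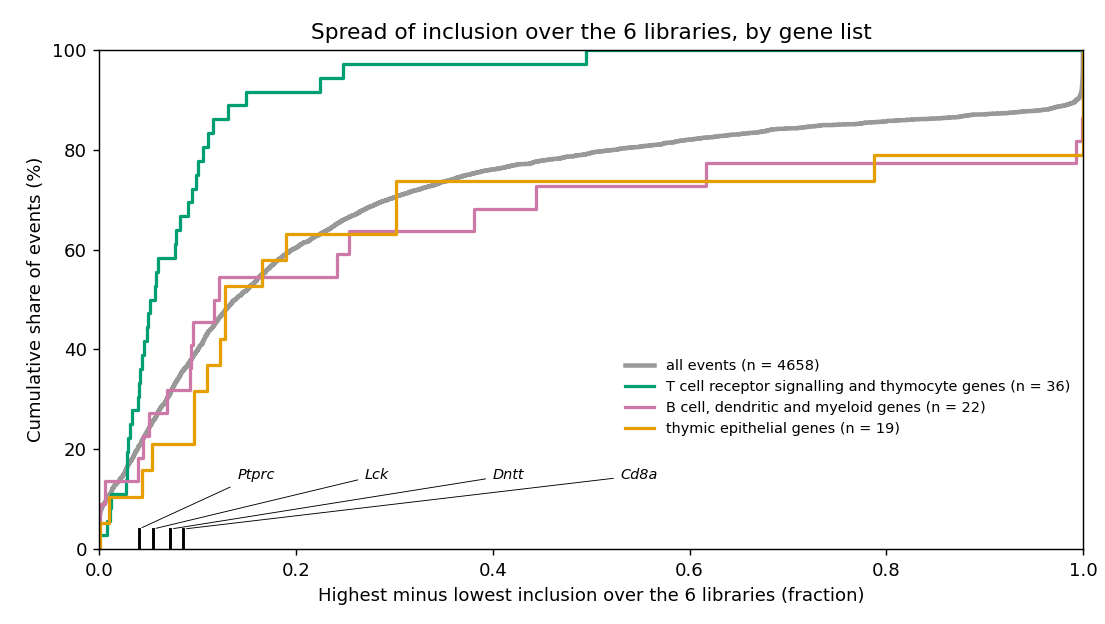
Cumulative share of events (%) against the highest minus the lowest inclusion over the 6 libraries (fraction), for all 4658 events, the T cell receptor signalling and thymocyte list (36 events), the B cell, dendritic and myeloid list (22) and the thymic epithelial list (19), with ticks for Ptprc, Lck, Dntt and Cd8a. The T cell curve reaches its median at the smallest span of the curves shown, 0.0542 beside 0.138 for all events.

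In the T cell list, 0 of 36 events passed for Raver2 knockdown against Ctr (limma, 4 at an unadjusted p under 0.05), 1 passed for Setd2 knockdown against Ctr and 0 between the knockdowns (1 at an unadjusted p under 0.05). Over all events 2.43%, 2.23% and 0.73% passed, and 12.02% were at an unadjusted p under 0.05 for Raver2 knockdown against Ctr, beside 11.1% of the list. Between the knockdowns 6.12% of all events were at an unadjusted p under 0.05 (limma), beside 2.78% of the list. The counts of events that passed lie near the shares of the whole series. All 4 knockdown libraries lay above both Ctr libraries in 6 of the 36 events and below both in 7. Of all events, 10.9% lay above and 11.6% below, and the difference was not tested. The event that passed was event 4 of Hdac7, a class IIa histone deacetylase gene expressed in thymocytes and endothelium. Its inclusion was 0.760 and 0.775 in Ctr, 0.849 and 0.884 under Raver2 knockdown and 0.909 in both Setd2 libraries. It rose by 0.142 ± 0.0153 under Setd2 knockdown (SE, n = 2 per group; limma, adjusted p = 0.0493), and the difference of 0.0990 under Raver2 knockdown did not pass (adjusted p = 0.109). The call was lost when any 1 of the 6 libraries was left out (adjusted p = 0.0671 to 0.169) and passed under 1 of 13 other settings.

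Events near the ends of the scale also changed in the lists of other cell types. B cells, dendritic cells and myeloid cells carry CD45, which the first sort gated out and the last sort did not name. They can also carry I-A/E, for which both sorts selected. Human dermal fibroblasts formed the culture layer under the sorted cells, so the last sort alone, on I-A/E and GFP, applied to them. Against Ctr, 5 of 22 events of the B cell, dendritic and myeloid list rose and none fell under Raver2 knockdown, and under Setd2 knockdown 4 rose and none fell, with the Ctr libraries shared by both comparisons. Of all events, 1.01% passed as higher and 1.42% as lower under Raver2 knockdown, and 0.88% and 1.35% under Setd2 knockdown. This list too was chosen with earlier results known, and near-identical events were counted separately, so the counts are a description. Fcrl5, a receptor of B cells, rose from below 0.01 to 0.987 ± 0.00231 (SD, n = 2) under Raver2 and 0.989 ± 0.00538 under Setd2 knockdown (limma, adjusted p = 0.00186 and 0.00246). Clec4b1 and event 3 of Cd209b, genes of C-type lectins, rose from below 0.01 to means of 0.949 and 0.946 under Raver2 knockdown and above 0.99 under Setd2 knockdown. Events 1 and 3 of Cd22, an inhibitory receptor of B cells, rose from below 0.01 to 0.0844 and 0.0829 under Raver2 knockdown (limma, adjusted p = 0.0347 and 0.0428). They held nearly the same values in every library, so they may be 1 measurement. Event 2 of Tlr7 rose to 0.0415 under Setd2 knockdown and was lower under Raver2 than under Setd2 knockdown by test (adjusted p = 0.0201). In the thymic epithelial list, Aire had 2 higher and 1 lower event in each knockdown. Event 1 rose from below 0.01 to 0.115 under Raver2 and 0.0761 under Setd2 knockdown (limma, adjusted p = 0.0498 for Setd2). Event 3 fell from above 0.99 to 0.891 and 0.929, nearly the reverse of event 1, so these may be 1 measurement. In the fibroblast list, event 2 of Fn1, fibronectin, fell from 0.127 ± 0.0110 in Ctr to below 0.01 in both knockdowns (adjusted p = 0.00676 and 0.00811). When the fit held only the 4 libraries compared, 0 events of the series passed for Setd2 knockdown against Ctr (limma, 554 at an unadjusted p under 0.05). The Setd2 calls of these lists were therefore lost in that setting. The part of these cell types in the values of Cd247 and Nfatc2 was not tested.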

How the data were processed

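Total RNA of the sorted cells was amplified with SMART-seq v4 and made into Nextera XT libraries, per the labels' protocols. The submitters' processing notes name Trimmomatic 0.39, TopHat2, Cufflinks and mm10, with no role or order. The authors deposited, for each library, a gene symbol and an inclusion frequency per event, a fraction from 0 to 1. Its calculation is not given in the sources used here, nor are coverage or exon. Because no read counts accompany the fractions, no interval from counting could be given.

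Events were matched between libraries by gene and order within the gene, for genes with equally many events in all 6 libraries. Values at the same position correlated across events between libraries (r = 0.742 to 0.802), against 0.0863 to 0.133 for shifted positions. Fractions were compared with limma 3.58.1 (R 4.3.3): group means, all 6 libraries, empirical Bayes with a variance trend, and Benjamini-Hochberg adjustment over 4658 events at 0.05. The procedure was tested on simulated data, with changes placed only in events that had all libraries between 0.01 and 0.99. That test therefore did not cover calls in events at the ends of the scale, such as those of the 6 genes. An event was called apart where the libraries of 2 groups differed by over 1e-06 with no overlap. Every event of the 6 genes was named; of the other lists, genes with an event that passed were named, as were the 3 events of other genes most like each variable event. One of those is not reported here. The genes and lists were chosen with earlier results of these data known. Alternatives were arcsine and logit scales (0.01 added), no variance trend, only the 4 libraries compared, only events between 0.01 and 0.99, repeated events dropped, genes listed in at least 4 libraries, each library left out and a hairpin-number block. Gene positions and exons came from GENCODE M21 (GRCm38).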

Additional observations from a re-analysis of the deposited data

Results flagged for a closer look

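Raver2 and Setd2 knockdown differed from each other in 3 events of the T cell genes, by limma's test of that difference over all events. Inclusion was higher under Raver2 than under Setd2 knockdown by 0.05466 in Cd247 event 2, by 0.05811 in Cd247 event 3 and by 0.9391 in Nfatc2 event 2 (adjusted p = 0.0215, 0.00940 and 0.0315). In each, both Raver2 libraries lay above both Setd2 libraries. Groups of 2 libraries were too small for a test of single libraries that stand apart.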

How the results depend on the processing

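Groups of 2 libraries and an unknown depth limit every value, and the calls among the T cell genes came from events with a library near 0 or 1. For Raver2 knockdown against Ctr, 113 events passed in all; 75 passed when the fit held just the 4 compared, 10 with mid-range events (no library below 0.01 or above 0.99), and 74 to 291 with 1 library left out. The T cell genes held 3 of these calls, then 1, 0 and 1 to 5. For Setd2 knockdown against Ctr, 104 passed; 0 passed with the 4 libraries (554 at an unadjusted p under 0.05), 6 among mid-range events and 48 to 279 with 1 library left out, while the T cell genes held 0, or 0 to 2 with 1 library left out. Between the knockdowns, 34 passed; 0 passed among mid-range events (107 at an unadjusted p under 0.05) and 46 to 119 with 1 library left out. The T cell genes held 3 of these, 1 without a variance trend, 0 among mid-range events and 0 to 4 with 1 library left out.

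With the hairpin number as a replicate block over the 4 knockdown libraries, 0 events passed between the knockdowns (265 at an unadjusted p under 0.05), 0 of them in the T cell genes (5 at an unadjusted p under 0.05; lowest adjusted p 0.504). Same-numbered hairpins share only a number: their deviations correlated with r = 0.0146 over all events and 0.0356 over mid-range events. No block could be used against Ctr, whose libraries carry no hairpin number.

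Cd247 event 2 missed the threshold against Ctr with the 4 libraries (limma, adjusted p = 0.0627) and without Setd2 library 1 or 2 (0.0655 and 0.0645). Some differences that never passed changed sign with 1 library left out. Against Ctr, the range under Raver2 knockdown was -0.03782 to 0.002076 for Ptprc, -0.06776 to 0.004071 for Cd8a and -0.1884 to 0.03935 for Nfatc2 event 3. Under Setd2 knockdown it was -0.02794 to 0.01195 for Ptprc, -0.06504 to 0.006794 for Cd8a and -0.09543 to 0.009904 for Nfatc2 event 2. Between the knockdowns it was -0.01973 to 0.01429 for Cd8a and -0.1152 to 0.02962 for Cd247 event 1. The cause was not tested. Of all values for single events of the T cell genes under other settings, 26 lost the call, 10 gained one, 9 changed direction and 488 did none of these. A difference under 0.001 was given no direction. The 488 therefore include Nfatc2 events 4 and 6 under Raver2 knockdown without Ctr library 2 and Cd247 event 1 under Setd2 knockdown without Setd2 library 1, which all came to 0 within that limit.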
